A study of Homo sapiens with 4 samples.

Results

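The genes of the phase II conjugation enzymes were followed in the human liver cancer lines Huh1 and Huh7, both established from hepatocellular carcinoma, with and without knockdown of CDCA8. Members were taken by symbol from 4 families: the UDP-glucuronosyltransferases of subfamilies 1A, 2A, 2B, 3A and 3B (UGT), the glutathione S-transferases of the cytosolic and kappa classes (GST), the microsomal glutathione S-transferases (MGST) and the cytosolic sulfotransferases (SULT). Of 18398 genes listed, 40 were members: 10 UGT, 16 GST, 3 MGST and 11 SULT genes. The 4 libraries were 1 each of Huh1 with negative control siRNA (NCsiRNA), Huh1 with CDCA8siRNA, Huh7 with NCsiRNA and Huh7 with CDCA8siRNA. The study's methods give 15 nM siRNA delivered with a cationic lipid, and 48 h of treatment. CDCA8 encodes a subunit of the chromosomal passenger complex, which acts in mitosis. As each condition was 1 library, no SD can be given for any value, and cultures, handling and condition cannot be told apart.

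Phase II enzymes join a water-soluble group to drugs, hormones, bile acids and bilirubin, often after oxidation by cytochrome P450, so that the product can leave the cell through exporters. UGT enzymes sit in the endoplasmic reticulum and transfer glucuronic acid from UDP-glucuronic acid. GST enzymes couple reactive electrophiles to glutathione, and SULT enzymes transfer sulfate from PAPS, the activated sulfate donor. Adult hepatocytes are the main site of all these reactions, and are known for alpha-class GST and UGT2B enzymes, while the pi-class GSTP1 is typical of bile duct cells, many other tissues and many tumours.

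Values are RPKM, read counts scaled to transcript length and library depth, so levels can be set side by side between genes. The depth behind them was about 12200000 to 13400000 reads per library, as estimated from the value of 1 read in the files. CDCA8 itself was at 24.1 RPKM in Huh1 with NCsiRNA and 5.86 RPKM with CDCA8siRNA, and at 51.5 and 7.36 RPKM in Huh7, so the libraries match their siRNA labels. All 10 hepatocyte markers checked, ALB, APOB and HNF4A among them, reached 1 RPKM in each library. Their summed level was 5238 and 4022 RPKM in Huh1 and 3323 and 2335 RPKM in Huh7 (NCsiRNA, then CDCA8siRNA). ALB alone was at 3447 and 2684 RPKM in Huh1 and 1166 and 721 RPKM in Huh7. The median over the markers ran the other way, at 132 and 95.6 RPKM in Huh1 and 163 and 112 RPKM in Huh7. Under each siRNA AFP, FGB and TTR were higher in Huh7, and the other hepatocyte markers were lower. Of 14 markers of biliary, stellate, endothelial and blood cells, 9 reached 1 RPKM in some library, and their sum was 138 and 142 RPKM in Huh1 and 319 and 380 RPKM in Huh7. The endothelial marker CDH5 was at 0 in all 4 libraries, and PTPRC of leukocytes stayed at or under 0.417 RPKM. Others were clearly present. In Huh7 COL1A1 was at 107 and 125 RPKM, KRT19 at 110 and 112 RPKM and LYZ at 11.1 and 23.4 RPKM. In Huh1 KRT7 was at 84.4 and 81.7 RPKM and CD68 at 23.3 and 16.5 RPKM. The part of these marker differences in the results that follow was not tested.

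Summed over the members listed, Huh1 carried far more UGT transcript than Huh7. UGT2B10 and UGT2B15 were not among the rows analysed, so the UGT sums do not cover the whole family. The 10 UGT genes summed to 765 and 588 RPKM in Huh1 with NCsiRNA and CDCA8siRNA, against 18.0 and 20.8 RPKM in Huh7. The 19 GST and MGST genes summed to 1855 and 1566 RPKM in Huh1 and 1119 and 1100 RPKM in Huh7. The 11 SULT genes summed to little in both lines, at 34.6 and 33.8 RPKM in Huh1 and 42.6 and 44.1 RPKM in Huh7. Of the 40 members, 28 reached 1 RPKM in at least 1 library, 16 of them in all 4. In both Huh1 libraries but neither Huh7 library 5 members reached it, and 3 did so the other way round. The other 12 members stayed at or under 0.506 RPKM everywhere, and GSTT1, SULT4A1 and SULT6B1 were listed at 0 in all 4 libraries.

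**Figure D1:**
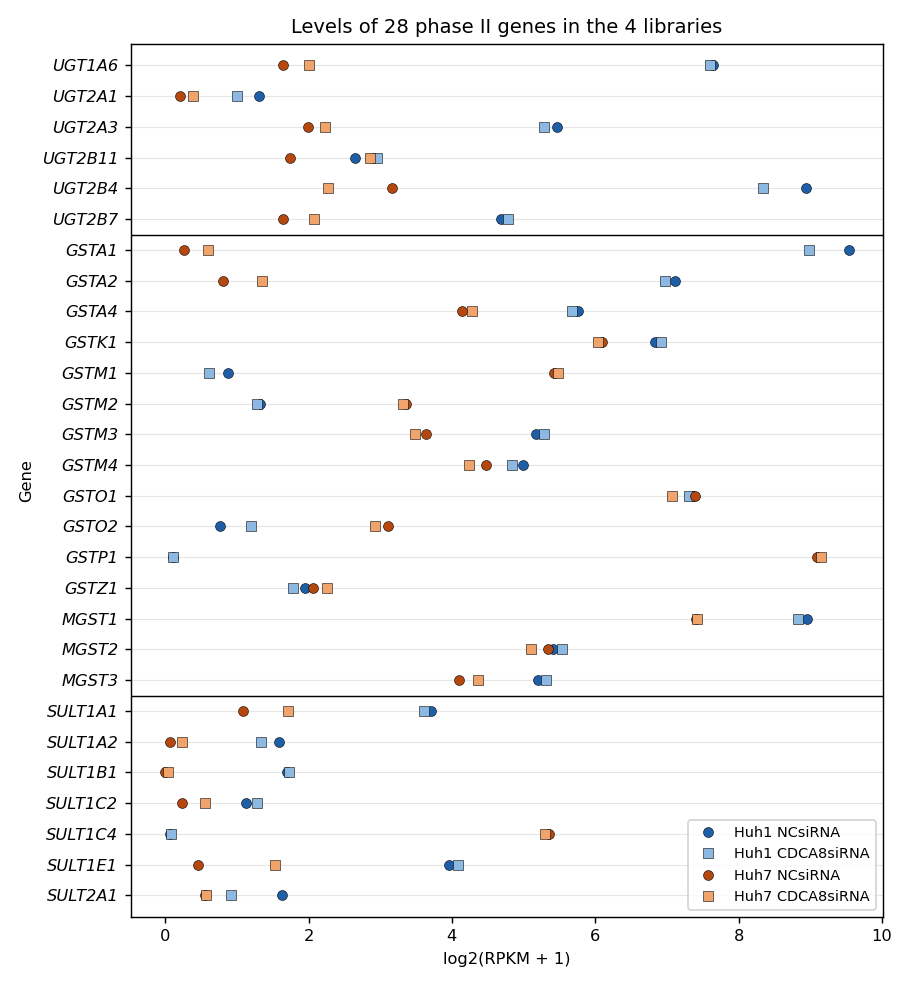
Level of the 28 members that reached 1 RPKM in at least 1 library, as log2(RPKM + 1) on the horizontal axis, in rows of UGT, GST with MGST, and SULT genes. Circles are NCsiRNA and squares CDCA8siRNA libraries, blue for Huh1 and orange for Huh7; the colours part widely for GSTA1, GSTP1, UGT1A6, UGT2B4 and SULT1C4, while circle and square of a colour mostly lie close.

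The glutathione transferases made up most of the transcript of all members, and the leading class differed between the lines. GSTA1, the main alpha-class enzyme of adult liver, was at 743 RPKM in Huh1 with NCsiRNA and 506 RPKM with CDCA8siRNA, and at 0.195 and 0.518 RPKM in Huh7. GSTA2, its close relative, was at 138 and 125 RPKM in Huh1 and at 0.752 and 1.56 RPKM in Huh7. The lines did not overlap for either gene, as for 26 of the 28 members that reached 1 RPKM in some library. The share over all genes was not taken, so non-overlap is not read as a trait of single genes. GSTP1 ran the other way, with 547 and 566 RPKM in Huh7 against 0.0780 and 0.0791 RPKM in Huh1, the value of about 1 read in each Huh1 library. The alpha class therefore held 50.4% and 43.5% of the summed GST and MGST level in Huh1 and 1.58% and 1.86% in Huh7, and GSTP1 held 0.00420% and 0.00505% in Huh1 and 48.9% and 51.5% in Huh7.

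**Figure D2:**
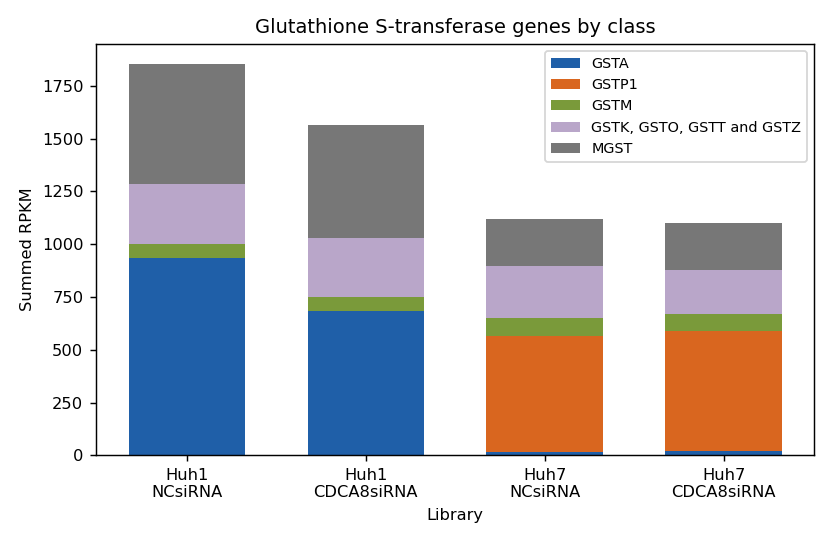
Summed RPKM of the 19 GST and MGST genes in each library, stacked by class. The alpha class (GSTA) fills the largest block in both Huh1 bars, at 934 and 681 RPKM, and is a sliver of 17.6 and 20.4 RPKM in the Huh7 bars, where GSTP1 takes its place.

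Other glutathione transferases were shared by the lines. MGST1, a membrane enzyme that also reduces lipid peroxides, was at 495 and 453 RPKM in Huh1 and 168 and 170 RPKM in Huh7. GSTO1, the omega-class thioltransferase, was at 164 and 158 RPKM in Huh1 and 168 and 134 RPKM in Huh7, where the lines overlapped. The kappa-class GSTK1 of mitochondria and peroxisomes was at 113 and 119 RPKM in Huh1 and 67.5 and 64.7 RPKM in Huh7. GSTA4, the alpha-class enzyme that clears the lipid peroxidation product hydroxynonenal, was at 53.1 and 50.02 RPKM in Huh1 and 16.7 and 18.4 RPKM in Huh7. MGST3 was at 35.7 and 38.7 RPKM in Huh1 and 16.1 and 19.6 RPKM in Huh7. All of these genes kept sizeable levels in both lines. GSTO2, the omega-class enzyme that reduces dehydroascorbate, was low in Huh1 at 0.700 and 1.29 RPKM, and at 7.63 and 6.603 RPKM in Huh7. Within the mu-class cluster on chromosome 1, neighbouring genes went opposite ways. GSTM1 was at 0.838 and 0.527 RPKM in Huh1 and 42.1 and 43.5 RPKM in Huh7, and GSTM2 at 1.51 and 1.44 RPKM in Huh1 and 9.25 and 9.01 RPKM in Huh7. GSTM3 was higher in Huh1, at 34.9 and 38.1 RPKM against 11.5 and 10.2 RPKM in Huh7. GSTM4 was at 30.8 and 27.5 RPKM in Huh1 and 21.1 and 17.8 RPKM in Huh7. Of the stretches of 50 bases in the GSTM1 transcript, 58.5% also occur in transcripts of other genes, first of all GSTM2 and GSTM4, so its 13.0 and 8.1 reads in Huh1 may belong to those relatives. For GSTP1, GSTM3 and MGST1 this share was 0%, and for GSTA1 28.9%.

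Among the UGT genes listed, UGT2B4, which glucuronidates bile acids, stood first in both lines with NCsiRNA, at 492 RPKM in Huh1 and 7.99 RPKM in Huh7. With CDCA8siRNA it was at 322 and 3.84 RPKM, and in Huh7 UGT2B11 then stood above it at 6.27 RPKM. UGT1A6, a phenol-conjugating enzyme, was at 198 and 193 RPKM in Huh1 and 2.11 and 3.02 RPKM in Huh7. It was the only UGT1A gene among the rows analysed, and 59.1% of its stretches of 50 bases are those of other UGT1A transcripts, which share their last exons, so its value may hold reads of any of them. UGT2A3 was at 43.0 and 38.2 RPKM in Huh1 and 2.98 and 3.71 RPKM in Huh7. UGT2B7, which conjugates morphine and steroids, was at 24.7 and 26.5 RPKM in Huh1 and 2.13 and 3.20 RPKM in Huh7. The lines did not overlap for any of these genes, which is not read as a trait of theirs, since the share over all genes was not taken. UGT2B11 was at 5.27 and 6.79 RPKM in Huh1 and 2.35 and 6.27 RPKM in Huh7, where they did. UGT3A1 and UGT3A2 stayed at or under 0.0265 RPKM.

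The sulfotransferases had 1 leading member in Huh7 and several in Huh1. SULT1C4, known from fetal tissues, was at 40.1 and 38.5 RPKM in Huh7, 94.2% and 87.4% of the summed SULT level there, and at 0.0449 and 0.0531 RPKM in Huh1, again about 1 read. SULT1E1, the estrogen sulfotransferase, was at 14.5 and 16.0 RPKM in Huh1 and 0.371 and 1.88 RPKM in Huh7. SULT1A1, which sulfates phenolic drugs, was at 12.1 and 11.2 RPKM in Huh1 and 1.13 and 2.27 RPKM in Huh7. SULT1A2 and SULT1B1 were at 1.51 to 2.32 RPKM in Huh1 and at or under 0.175 RPKM in Huh7. SULT2A1, the liver enzyme for bile acids and DHEA, was low throughout, at 2.11 and 0.890 RPKM in Huh1 and 0.474 and 0.488 RPKM in Huh7. For SULT1A1, 35.2% of the stretches of 50 bases are shared with other genes, SULT1A3 and SULT1A4 foremost.

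Was the difference between the lines larger than what the siRNA moved? limma was fitted to log2(RPKM + 1) of all 12148 genes that reached 1 RPKM in some library, with the siRNA as a covariate, and a gene was called at a Benjamini-Hochberg adjusted p under 0.05 and at least 2-fold. The libraries of a line under the 2 siRNAs stand in for repeats here, so the p-values measure whether the line difference held under both siRNAs, not the spread between cultures. Of the 28 members tested, 14 were lower in Huh7 and 5 higher. Over all genes 26.7% were called, 9.9% lower and 16.8% higher, which is 1203 and 2040 genes. After quantile normalization the calls were 1464 lower and 1636 higher over all genes, and 17 lower and 5 higher among members. The median difference, Huh7 minus Huh1, was -0.94 over the 28 members and 0.14 over all genes tested, and the latter was -0.0059 after quantile normalization. A member that passed the filter through 1 line alone had to differ, which held for 9 of the 28 and for 6 of the 19 called, 3 of them higher and 3 lower. Among the 19 members that passed in both lines, 11 were called lower and 2 higher, where 7.66% and 11.8% of all 10357 such genes were.

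Among members that passed in both lines, the largest differences on the log2(RPKM + 1) scale, Huh7 minus Huh1, were -5.96 for GSTA2 (limma adjusted p = 1.03e-08), -5.92 for UGT2B4 (limma adjusted p = 1.62e-09) and -5.80 for UGT1A6 (limma adjusted p = 3.11e-09). The differences of 9.01 for GSTP1, -8.83 for GSTA1, 5.26 for SULT1C4 and 4.71 for GSTM1 are given as a description, since these genes passed the filter through 1 line. Where 1 line holds a few reads, the fitted value depends on the added 1 RPKM. As plain RPKM, Huh7 over Huh1, the ratio for GSTP1 was 7019 with NCsiRNA (95% exact binomial interval 1263 to 278127, from 6416 reads against 1) and 7157 with CDCA8siRNA (1288 to 283616). For SULT1C4 it was 893 with NCsiRNA (179 to 39484, from 910 reads against 1) and 725 with CDCA8siRNA (169 to 37385). For GSTA1, Huh1 over Huh7, it was 3802 (1277 to 38119, from 10130 reads against 2) with NCsiRNA and 976 (484 to 2871, from 6798 reads against 6) with CDCA8siRNA. These intervals cover counting error alone. Smaller differences, -1.48 for MGST1, -1.66 for GSTM3, -1.51 for GSTA4, -1.02 for MGST3 and 2.04 for both GSTM2 and GSTO2, were also called. GSTK1 at -0.80 (limma adjusted p = 3.93e-05) missed 2-fold, and GSTO1 at -0.10 (95% interval -0.30 to 0.10, limma adjusted p = 0.328) missed both thresholds.

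**Figure D3:**
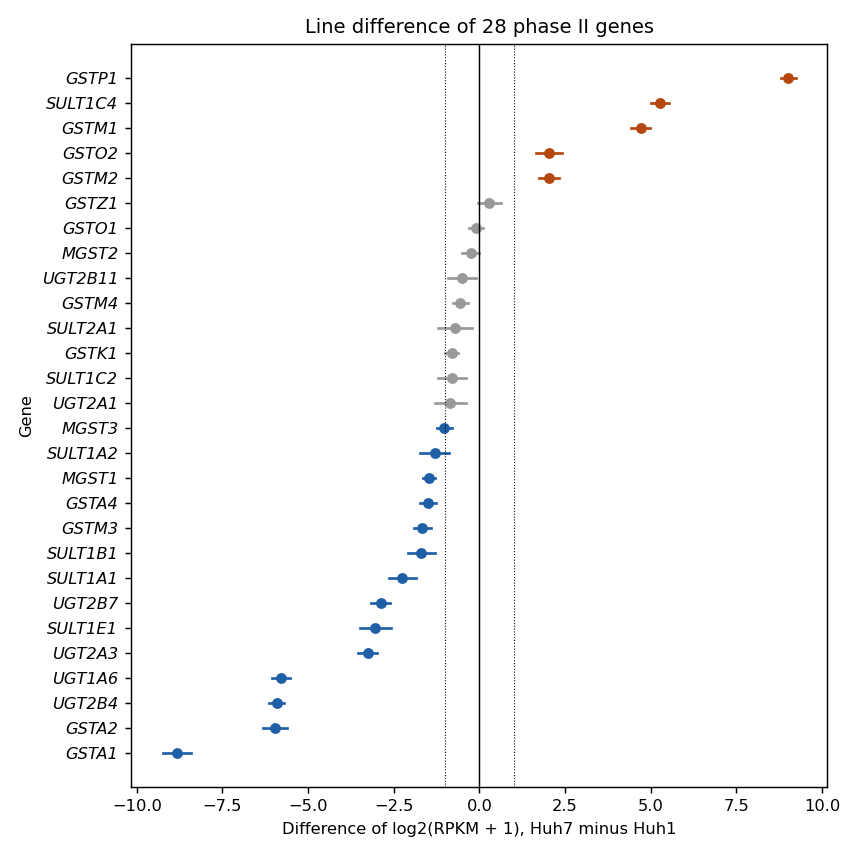
Difference of log2(RPKM + 1), Huh7 minus Huh1, for the 28 members tested, as points with 95% intervals from limma. Orange genes were called higher and blue genes lower in Huh7, grey genes were not called, and dotted lines mark 2-fold; GSTA1 at -8.83 and GSTP1 at 9.01 form the ends.

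Several members are neighbours in the genome. On chromosome 4 the UGT2 genes lie beside SULT1B1 and SULT1E1. Of these 9 members 7 passed the filter and 5 were called lower. UGT2A1 and SULT1B1 passed through Huh1 alone, so their negative differences were fixed by the filter. The 5 that passed in both lines all had a negative difference, as did 44.3% of all such genes. Of them SULT1E1, UGT2A3, UGT2B4 and UGT2B7 were called lower, beside 7.66% of all such genes. Of the 5 alpha-class members on chromosome 6, GSTA1, GSTA2 and GSTA4 passed the filter and were called lower, while GSTA3 and GSTA5 did not pass it. GSTA1 passed through Huh1 alone, which fixed its direction. SULT1A1 and SULT1A2, both on chromosome 16, were also called lower, SULT1A2 having passed the filter through Huh1 alone. MGST1 and UGT1A6, called lower too, have no such neighbour here. The genes of the mu-class cluster on chromosome 1 split, as described above. Values of neighbours with shared stretches are not independent of each other.

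Promoters are shown for the members with the widest gaps, to set the most Huh7-rich genes beside the most Huh1-rich ones. RefSeq windows on GRCh38.p14 were matched by symbol for 32 of 40 members. The 250 bases before the start are given on the gene's own strand, with each CG dinucleotide in capitals: GSTP1 at chr11:67583562-67583811 (plus strand), SULT1C4 at chr2:108377704-108377953 (plus strand), GSTA1 at chr6:52803817-52804066 (minus strand) and GSTA2 at chr6:52763476-52763725 (minus strand).
GSTP1: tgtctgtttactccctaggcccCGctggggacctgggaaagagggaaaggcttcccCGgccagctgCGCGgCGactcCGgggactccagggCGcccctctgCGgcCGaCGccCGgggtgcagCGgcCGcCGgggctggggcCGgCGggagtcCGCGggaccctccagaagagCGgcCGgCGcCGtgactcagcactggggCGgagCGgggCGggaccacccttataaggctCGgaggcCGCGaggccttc
SULT1C4: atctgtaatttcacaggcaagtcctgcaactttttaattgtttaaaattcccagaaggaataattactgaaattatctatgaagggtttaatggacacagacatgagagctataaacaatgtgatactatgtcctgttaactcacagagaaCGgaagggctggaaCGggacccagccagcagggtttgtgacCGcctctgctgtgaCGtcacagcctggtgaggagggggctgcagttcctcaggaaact
GSTA1: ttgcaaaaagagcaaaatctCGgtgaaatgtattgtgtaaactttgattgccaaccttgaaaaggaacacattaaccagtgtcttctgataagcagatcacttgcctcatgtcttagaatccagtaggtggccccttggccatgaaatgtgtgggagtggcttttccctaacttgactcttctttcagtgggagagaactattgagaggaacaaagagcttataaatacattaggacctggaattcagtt
GSTA2: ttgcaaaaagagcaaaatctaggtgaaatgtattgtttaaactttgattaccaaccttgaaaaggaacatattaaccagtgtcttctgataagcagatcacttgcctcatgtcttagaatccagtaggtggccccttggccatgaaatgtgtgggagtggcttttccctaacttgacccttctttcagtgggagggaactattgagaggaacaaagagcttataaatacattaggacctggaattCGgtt

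The window of GSTP1 held 28 CG dinucleotides and that of SULT1C4 held 4, while those of GSTA1 and GSTA2 held 1 each, against a median of 11 over all 35116 windows. Among members called higher in Huh7 the count ran from 4 to 28 over 6 windows, and among those called lower from 0 to 19 over 14 windows, with medians of 16.5 (5 genes) and 1.5 (11 genes), which is a description and was not tested. GSTA1 and GSTA2, both far lower in Huh7, had windows that were identical at 243 of 250 bases, with TATAAA at 30 to 25 bases before the start in both. SULT1C4 held TATAAA too, at 140 to 135 bases before the start. On either strand, TATAAA stood in 10.7% of all windows. The core of the antioxidant response element, TGACNNNGC, through which NRF2 is known to act, was found in GSTP1 as TGACTCAGC at 66 to 58 bases before the start, where it overlaps the AP-1 letters TGACTCA. On either strand, 10.9% of all windows held this core. Among the members called in the line comparison it stood in 2 of 6 windows of genes higher in Huh7 (GSTP1 and GSTM1) and in 2 of 14 windows of genes lower in Huh7 (GSTA4 and UGT1A6). The palindromic HNF1 consensus, searched on both strands, was in no member's window. It stood in only 0.0057% of all windows, so its absence says nothing about these genes. A match is a run of letters, and no binding or methylation was measured here.

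The question of the knockdown contrast was which members differed with CDCA8siRNA in each line, and few did. In Huh1, 0 of the 25 members that reached 1 RPKM in either Huh1 library differed 2-fold on the log2(RPKM + 1) scale, where 0.494% of 10940 genes did, 0.32% higher and 0.174% lower (35 higher and 19 lower, or 22 and 20 after quantile normalization). In Huh7, 2 of 22 did, SULT1E1 and UGT2B11, both higher, where 1.57% of 11565 genes did, 0.873% higher and 0.7% lower. SULT1E1 passed the filter in Huh7 through the CDCA8siRNA library alone (0.371 RPKM with NCsiRNA and 1.88 RPKM with CDCA8siRNA), so its direction there was fixed. No test is possible within a line. The median difference over members was -0.052 in Huh1 and 0.049 in Huh7, beside 0.023 and 0.033 over all genes.

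UGT2B4 was lower with CDCA8siRNA in both lines. In Huh1 it was at 492 RPKM with NCsiRNA and 322 RPKM with CDCA8siRNA, on about 13843 and 8939 reads. In Huh7 it was at 7.99 and 3.84 RPKM, on about 205 and 99 reads. The differences of log2(RPKM + 1) were -0.61 and -0.89, with a sampling SD from the number of reads of 0.0195 and 0.146. UGT2B11 was higher in both lines, at 5.27 and then 6.79 RPKM in Huh1 and 2.35 and then 6.27 RPKM in Huh7, differences of 0.31 (sampling SD 0.136) and 1.12 (sampling SD 0.164). These genes lie in the same cluster on chromosome 4, and UGT2B11 shares 40.9% of its stretches of 50 bases with other genes, against 3.16% for UGT2B4. Its relatives include UGT2B28, which stayed at or under 0.129 RPKM, and UGT2B10, which was not among the rows analysed. The value of UGT2B11 may hold reads of such relatives.

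For a test the lines served as repeats of the siRNA contrast. limma was fitted over 10357 genes that passed the filter in both lines, the cell line being a covariate, with 1 residual degree of freedom. Its p-values measure whether the lines moved alike, not the spread between transfections, and an exact permutation test of 2 against 2 libraries cannot go below 0.333. UGT2B4 fell by 0.75 (SE 0.0994, limma adjusted p = 0.00330) and UGT2B11 rose by 0.71 (SE 0.178, limma adjusted p = 0.0366). The other 17 of the 19 members tested did not pass the test. That is 1 higher and 1 lower member of 19, where 6.03% of all genes were called higher and 4.21% lower, so 2 of 19 is close to the background of 10.2%. The median over the 19 members was 0.023, beside 0.026 over all genes. Both calls were lost without the cell line as a covariate and without the filter on low values, and UGT2B11 was also lost without the mean-variance trend (limma adjusted p = 0.0601, from 0.00275 to 1.00 over the alternatives). In the same fit 7 of 10 hepatocyte markers were lower and 0 higher, with a median of -0.46, among them ALB at -0.53 and APOB at -0.70 and not AFP (-0.067, limma adjusted p = 0.733). The part of this shift in the difference of UGT2B4 was not tested, and in bulk RNA fewer cells of a kind and less transcript per cell cannot be told apart.

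**Figure D4:**
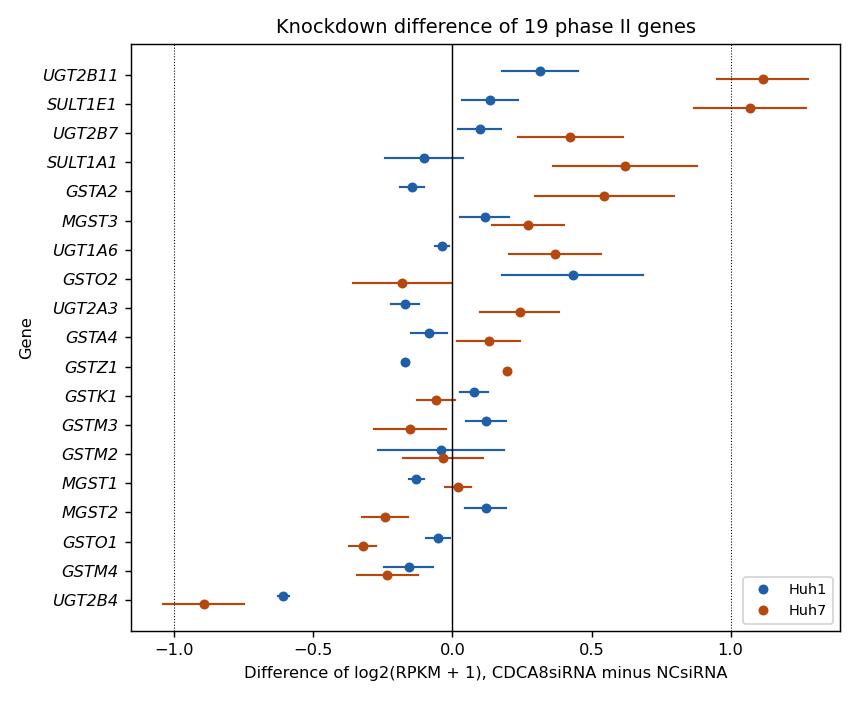
Difference of log2(RPKM + 1), CDCA8siRNA minus NCsiRNA, for the 19 members that passed the filter in both lines, blue for Huh1 and orange for Huh7. Bars show 1 sampling SD from the number of reads, which holds no variation between cultures and was not available for GSTZ1; dotted lines mark 2-fold, which UGT2B11 and SULT1E1 passed in Huh7.

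SULT1E1 was at 14.5 and 16.0 RPKM in Huh1, and went from 0.371 to 1.88 RPKM in Huh7, on about 8 and 41 reads. As only the CDCA8siRNA library passed the filter in Huh7, its rise there was fixed in advance, which also bears on its fit over both lines. Its difference was 0.13 in Huh1 and 1.07 in Huh7 (sampling SD 0.101 and 0.201), and over both lines 0.60 (SE 0.195, limma adjusted p = 0.0856). After quantile normalization it stood under 2-fold in Huh7, at 0.95, where UGT2B4 then reached it, while over both lines SULT1E1 passed the test at 0.52 (limma adjusted p = 0.0205, from 0.0205 to 1.00 over the alternatives). GSTA1 was not tested over both lines, as it was under 1 RPKM in Huh7. In Huh1 it went from 743 to 506 RPKM, a ratio of 0.681 and a difference of -0.55 with a sampling SD of 0.0226. GSTP1 differed by 0.049 in Huh7 (sampling SD 0.0252), GSTM1 by 0.048 (sampling SD 0.0809) and SULT1C4 by -0.057 (sampling SD 0.0665). SULT2A1 went from 2.11 to 0.890 RPKM in Huh1, on about 56 and 23 reads, a difference of -0.72 with a sampling SD of 0.192. It passed the filter in Huh1 through the NCsiRNA library alone, which fixed this direction.

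The rest of the pathway was read from lists of other genes, whose counts of calls stand beside the 10.2% of all genes called in this fit, 6.03% higher and 4.21% lower. The counts are small, and nothing particular to a list is read from them. Among transcription factors known to act on phase II genes in liver, 4 of 16 tested were lower with CDCA8siRNA and 0 higher, with a median of -0.21. CEBPA, a factor of hepatocyte differentiation, was at 94.4 RPKM with NCsiRNA and 47.2 RPKM with CDCA8siRNA in Huh1, and at 68.9 and 30.3 RPKM in Huh7 (-1.07 over both lines, limma adjusted p = 0.000787). NR1H4, the bile acid receptor FXR, was at 41.9 and 22.1 RPKM in Huh1 and at 6.65 and 3.44 RPKM in Huh7 (-0.84, limma adjusted p = 0.00251). ONECUT1 and HNF4A, both factors of the liver lineage, fell by 0.64 and 0.52 on the log2(RPKM + 1) scale (limma adjusted p = 0.0153 and 0.00878). HNF4A is also in the list of hepatocyte markers.

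Of the genes that supply UDP-glucuronic acid, PAPS and glutathione, 1 of 20 tested rose and 2 fell. PAPSS2, which makes PAPS, rose, with 60.1 and 84.9 RPKM in Huh1 and 32.1 and 58.2 RPKM in Huh7 (0.67, limma adjusted p = 0.00665). UGDH, which makes UDP-glucuronic acid, fell, with 305 and 223 RPKM in Huh1 and 78.5 and 55.7 RPKM in Huh7 (limma adjusted p = 0.00890); it and GSS, the other gene that fell, were named after their values were seen. Of 25 genes of the NRF2 pathway tested, 3 rose and 1 fell, with a median of 0.043. HMOX1, which breaks down heme, rose, with 206 and 283 RPKM in Huh1 and 6.39 and 16.2 RPKM in Huh7 (0.83, limma adjusted p = 0.0120), and ME1, a source of NADPH, rose by 0.68 (limma adjusted p = 0.00577). Of 11 other conjugating enzymes tested 2 fell and 0 rose: NNMT, which methylates nicotinamide, at -0.65 (limma adjusted p = 0.0188) and AS3MT, which methylates arsenic, at -0.58 (limma adjusted p = 0.0146). Of 12 genes that remove conjugates or degrade glutathione 1 fell, CHAC1 at -0.58 (limma adjusted p = 0.0304), and of 6 exporters 1 fell and 0 rose.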

How the data were processed

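RNA of 4 libraries, 1 for each cell line and siRNA, was sequenced by the authors from Illumina TruSeq RNA libraries. The authors deposited 1 RPKM value per RefSeq transcript and library; the unit is not stated in the files and was read from the values, since low values times transcript length peak at whole multiples of a constant for each library (37.8% to 41.5% of values lie within 0.05 of a whole read). The submitters' processing notes name CASAVA 1.8.2, TopHat2 2.0.9 and hg19; the counter, annotation, strand setting and treatment of reads with several matches are not given in the sources used here. Reads behind a gene were estimated from that constant and transcript lengths of GENCODE release 29, and serve only to describe precision. A wrong length would shift them.

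Differences were taken on log2(RPKM + 1), which understates changes of low genes. Within a line, genes that reached 1 RPKM in either library were compared at 2-fold. limma 3.58.1 in R 4.3.3 (lmFit, eBayes with trend) was fitted to all genes, with Benjamini-Hochberg adjustment over all of them. The steps were tested on simulated data. Python 3.11.15 was used for the rest.

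Members and lists were chosen with earlier results of these data known. Members named with values are those at least 2-fold different in a line, past the test, among the 20 largest called line differences, or among the 3 highest of UGT, GST with MGST, and SULT; GSTK1, GSTO1, GSTM4, GSTZ1, MGST2, UGT3A1, UGT3A2 and SULT2A1 were added after their values were seen. List genes named are up to 10 past the test, by size. Alternatives were a pseudocount of 0.1 RPKM, no filter, a minimum of 5 RPKM, upper quartile scaling, quantile normalization, no covariate, no trend, and each siRNA's libraries alone.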

Additional observations from a re-analysis of the deposited data

Results flagged for a closer look

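Of the 19 members that passed the filter in both lines, 11 had CDCA8siRNA differences of opposite sign in the 2 lines, 4 were higher in both and 4 lower in both. The share of opposite signs over all genes was not taken, so nothing particular to the members is read from these counts. Each line is 1 library against 1 library, so the difference between the lines was not tested. Some differences were smaller than their sampling SD, such as those in Huh7 of MGST1 (0.019, sampling SD 0.047) and GSTK1 (-0.060, sampling SD 0.069). The difference of log2(RPKM + 1) between CDCA8siRNA and NCsiRNA in Huh7, minus that in Huh1, was 0.69 for GSTA2, 0.72 for SULT1A1, 0.41 for UGT1A6 and 0.41 for UGT2A3, all of them lower in Huh1 and higher in Huh7. It was 0.21 for GSTA4, 0.15 for MGST1 and 0.37 for GSTZ1, in the same directions. GSTO2 at -0.61, MGST2 at -0.36, GSTM3 at -0.27 and GSTK1 at -0.14 were higher in Huh1 and lower in Huh7. GSTO2 in Huh1, and GSTA2 and SULT1E1 in Huh7, passed the filter through the CDCA8siRNA library alone. Their rise in that line was therefore fixed in advance. For GSTA2 and SULT1A1 the Huh7 values rest on about 12 and 25 and on about 16 and 32 reads.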

How the results depend on the processing

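The number of members called in the line comparison, 19 of 28, ranged from 16 to 22 over the alternatives. Members called 2-fold in Huh1 went from 0 to 1 (SULT2A1, lower) with a pseudocount of 0.1 RPKM, and those in Huh7 from 2 to 3 (UGT2B4 added, lower) with that pseudocount and to 1 (UGT2B11) with a minimum of 5 RPKM. SULT2A1 passed the filter in Huh1 through the NCsiRNA library alone. At the minimum of 5 RPKM, UGT2B11 passed in Huh7 through the CDCA8siRNA library alone, so these directions were fixed. In the limma fit over both lines the 2 members called became 1 (UGT2B4) without the trend, 0 without the cell line as a covariate and 0 without the filter on low values. The last 2 settings called 0 of all genes as well, in place of 1061, with 89 and 2050 genes at an unadjusted limma p under 0.05, and without the filter 18398 genes were tested. The limma adjusted p of UGT2B4 was 1.00 without the covariate and 0.445 without the filter, and otherwise between 3.41e-06 and 0.0182. With a pseudocount of 0.1 RPKM, 164 in place of 54 genes differed 2-fold in Huh1 and 422 in place of 182 in Huh7. UGT2A3, not called, went from 0.036 to -0.011 over both lines under quantile normalization. Of 428 values of single members under an alternative, 404 kept their direction and their side of the threshold, or stayed within their error. A change of filter, covariate or trend leaves the log2 difference itself unchanged, so part of this count was fixed in advance. No paired analysis was possible because the labels give no replicate numbers and each condition has 1 library; the cell line, the one pairing there is, was already a covariate of the knockdown fit, and no library could be left out because the fit would keep no residual degrees of freedom. Depth limits the members under 1 RPKM, most of which rest on a few reads.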

Other observations

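The lists of genes that serve the conjugation enzymes were also read in the line comparison, a view added after seeing the data. Over all genes 26.7% were called there, 9.9% lower and 16.8% higher in Huh7. Of 25 genes of the NRF2 pathway, 18 were called lower in Huh7 and 3 higher, with a median difference of -2.27, beside 0.14 over all genes. The 3 called higher were MAFF, MAFK and PIR, the last at 8.72 and 9.39 RPKM in Huh1 and 43.1 and 55.0 RPKM in Huh7. The other genes named in this view were picked without a fixed rule. AKR1B10, an aldo-keto reductase, was at 5758 and 5427 RPKM in Huh1 and 5.07 and 7.87 RPKM in Huh7. NQO1, a quinone reductase, was at 773 and 694 RPKM in Huh1 and 130 and 153 RPKM in Huh7. NFE2L2, which encodes NRF2 itself, differed by -0.44 and was not called at 2-fold, with 129 and 125 RPKM in Huh1 and 97.8 and 89.0 RPKM in Huh7. GCLC and GCLM, the subunits of the enzyme that limits glutathione synthesis, were at 170 and 162 RPKM and at 330 and 334 RPKM in Huh1, and at 27.2 and 31.8 RPKM and at 30.9 and 32.5 RPKM in Huh7.

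Of 21 genes of cofactor supply 8 were lower and 3 higher in Huh7, with GCLC and GCLM among the genes that are in both lists. UGP2, which makes UDP-glucose, was higher in Huh7 at 140 and 139 RPKM against 33.5 and 34.2 RPKM, whereas UGDH, the next enzyme, was lower. Of 19 transcription factors 4 were lower and 3 higher. NR1I2, the xenobiotic receptor PXR, was at 3.43 and 3.92 RPKM in Huh1 and listed at 0 in both Huh7 libraries. Of 7 exporters 4 were lower in Huh7 and 0 higher, of 13 other conjugating enzymes 1 was lower and 5 higher, and of 14 genes that remove conjugates 1 was lower and 2 higher. These counts are small, and some of these genes, NR1I2 among them, passed the filter through 1 line alone. Nothing particular to a list is read from them.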
